A study of Rattus norvegicus with 2 samples.

Results

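The genes described here make, carry or remove reactive oxygen species. They are 45 named rat genes: subunits of the NADPH oxidases, superoxide dismutases and catalase, the enzymes of glutathione synthesis and use, the thioredoxin and peroxiredoxin systems, the Nrf2 pathway with the haem oxygenases, and Ucp2 and Xdh. They were chosen by name, with no threshold on a measured value. Probes were matched to symbols through RefSeq accessions, which placed 44 of the 45 on the array, among 39500 genes and unnamed transcripts. Noxo1, which organises the Nox1 complex, had no matched probe.

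RNA came from the hypothalamus of SHR, the spontaneously hypertensive rat, whose blood pressure rises with age in an inbred line. The male group and the female group each held 5 SHR rats aged 9 weeks, and both groups carried the same strain background, with no normotensive strain beside them. All rats were fed freely and killed under ether with decapitation. For each sex, 100 ng of RNA per rat was pooled and hybridised to 1 single-colour (Cy3) array, so there was 1 measurement per sex and no test could be made. No label gives the oestrous stage of the females.

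Spot signal had its 75th percentile at 2203 units (male) and 2254 units (female), and local background had a median of 33 units on each array. Levels are given as a percentage of that percentile on the same array, and differences as male minus female log2 level. Of 14 genes of hypothalamic neurons 12 were well above background on both arrays. Among them Pmch was at 99662 units in the male and 114510 units in the female pool, and Avp at 68339 and 63410 units. A list of 8 pituitary genes had 4 well above background on both, 3 higher in the male and 1 in the female pool. Tshb had the largest difference of the 4, at 11.7% (male) and 0.939% (female), on a spot outside patches. Cga, the shared subunit of glycoprotein hormones, was at 84.9% (male) and 20.8% (female) on a spot in a patch, and Prl, the prolactin gene, at 0.150% and 5.43%, not well above background in the male pool and also in a patch. The median of the list was 1.19, and 0.35 without spots in patches. Spots at least 2-fold apart lay in patches on the slide: 80.2% of them were in one, against 9.03% of the other measured spots. A patch here means that, of the 18 measured spots of other probes nearest to a spot, 2 or more were at least 2-fold apart in 1 direction.

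As background, NADPH oxidases transfer electrons from NADPH to oxygen and so make superoxide, which superoxide dismutases convert to hydrogen peroxide. Catalase, the glutathione peroxidases and the peroxiredoxins then reduce the peroxide, the latter groups at the expense of glutathione and thioredoxin. Nrf2, encoded by Nfe2l2 and held in check by Keap1, is a transcription factor that binds antioxidant response elements and drives many of these detoxifying genes. In the hypothalamus and brainstem, superoxide from NADPH oxidase is known as a mediator of the pressor action of angiotensin.

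The core of the antioxidant response element is shown first, because it is the sequence feature by which many of these genes are known to be driven together. The letters TGACNNNGC were searched on both strands of RefSeq promoter windows of build GRCr8, which run from 250 bases before to 50 bases after an annotated start. The table held 41 windows for 36 of the 45 genes. The 9 genes without an entry were Ncf4, Rac1, Rac2, Sod3, Gsr, Prdx6, Hmox1, Gstt1 and Gstt2. The core was found in 13 of the 41 windows (31.7%), each of a different gene, and in 12.1% of all 33469 windows of the same length. Counted along the gene, it lay upstream of the start in Sod2, Gstp1, Gclm, Prdx1, Gpx2, Txnrd1, Gsta3, Hmox2 and Ncf1. In Prdx5 it began at base -1 and so spanned the start. In Nfe2l2, Gsta1 and Prdx4 it lay downstream of the start. The AP-1 letters TGACTCA overlapped the core in Gstp1 and Prdx1, and were found in 4.88% of the members' windows and 4.63% of all. A match describes the letters only. Stretches around the core that lie wholly upstream of the start are printed for genes whose values are described later, in the orientation of the core, which is in capitals.
Gclm, chr2:213031943-213031991, minus strand: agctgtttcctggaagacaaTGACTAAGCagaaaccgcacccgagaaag
Gstp1, chr1:210769738-210769786, minus strand: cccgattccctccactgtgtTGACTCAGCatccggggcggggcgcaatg
Prdx1, chr5:135383751-135383799, minus strand: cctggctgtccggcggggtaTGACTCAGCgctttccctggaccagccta
Txnrd1, chr7:22755954-22756002, plus strand: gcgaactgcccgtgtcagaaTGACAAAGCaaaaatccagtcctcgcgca
Sod2, chr1:50050175-50050223, plus strand: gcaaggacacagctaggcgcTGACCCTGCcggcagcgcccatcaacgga
Hmox2, chr10:11337679-11337727, plus strand: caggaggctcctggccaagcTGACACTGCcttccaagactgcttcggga
Ncf1, chr12:28121706-28121754, minus strand: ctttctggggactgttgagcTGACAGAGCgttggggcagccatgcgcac

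The male and female pools were close in most of these genes. Of the 44 genes on the array 41 were well above background on both arrays, Gclm was so in the male pool only, and Cybb and Gsta3 were so in neither. Of the 41, the male pool was the higher one in 24 (58.5%) and the female pool in 17, with a median difference of 0.03. Over all 24134 genes and transcripts measured so, the male pool was the higher one in 45% and the female pool in 55%, and the median was -0.02. The members' median was 0.00 when arrays were centred on their medians, which moved all genes to -0.05. Of the 41 genes 34 (82.9%) were less than 1.2-fold apart, against 87.1% of all genes.

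Only Gclm was at least 2-fold apart, of the 42 members measured, where 4.23% of all 25945 genes and transcripts measured were (2.58% higher in the male and 1.65% higher in the female pool). At 1.5-fold or more there were Gclm and Ucp2 (4.76%, against 6.91% of all), 1 towards each pool, where 4.17% of all genes were higher in the male and 2.74% in the female pool. At a threshold of 1.2-fold, chosen after the values were seen, there were 8 (19.0%, against 17.3% of all), 5 towards the male pool (9.13% of all) and 3 towards the female pool (8.14% of all). These added Cyba, Rac2, Hmox1 and Gstm2 on the male side and Nox1 and Nox4 on the female side. The members' shares were near those of all genes at 1.5-fold and at 1.2-fold.

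Each difference carries a technical SD, taken from repeat spots that lay at the same place on both arrays. For 1 spot it was 0.038 at levels over the 75th percentile and 0.23 at log2 levels of -6 to -4. It covers spots only and not rats, labelling or hybridisation. The error that the scanner software gives for each spot was larger, with a median of 0.20 for the difference. Of the 41 differences 31 were under 1 such software error, and Ucp2 alone was over 2 of them.

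**Figure D1:**
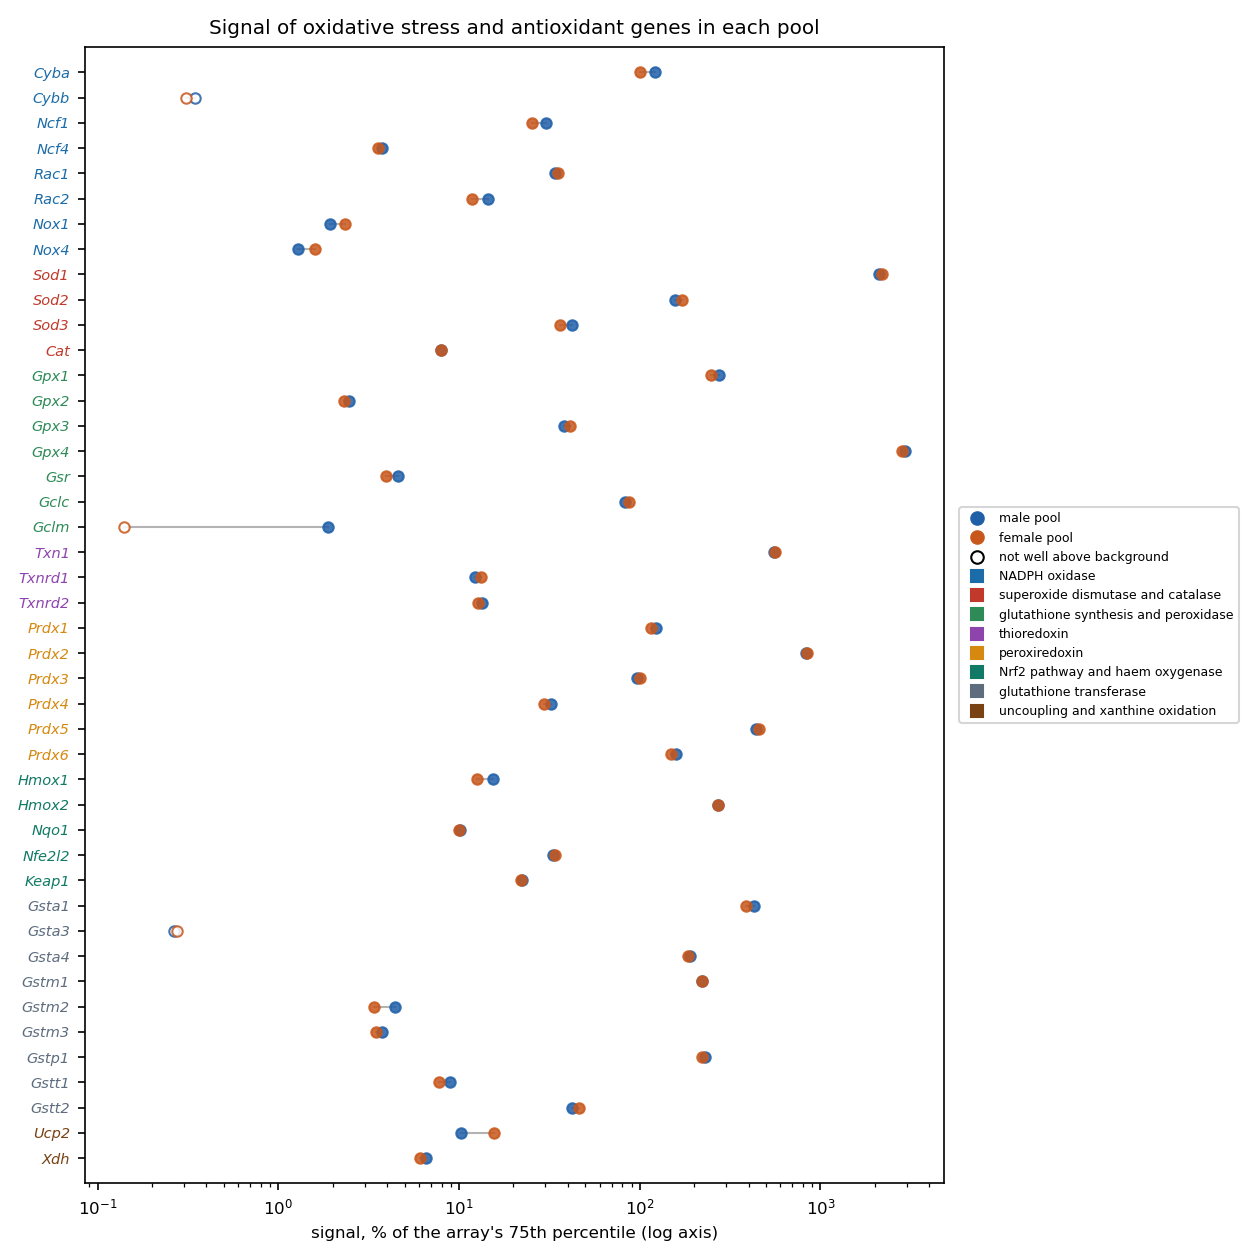
Level of each of the 44 genes on the array in the male pool (blue) and the female pool (orange), as a percentage of the array's 75th percentile on a log axis; open circles were not well above background. Most pairs nearly coincide, Gclm and Ucp2 stand apart, and levels of different genes come from different probes and are not to be ranked.

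**Figure D2:**
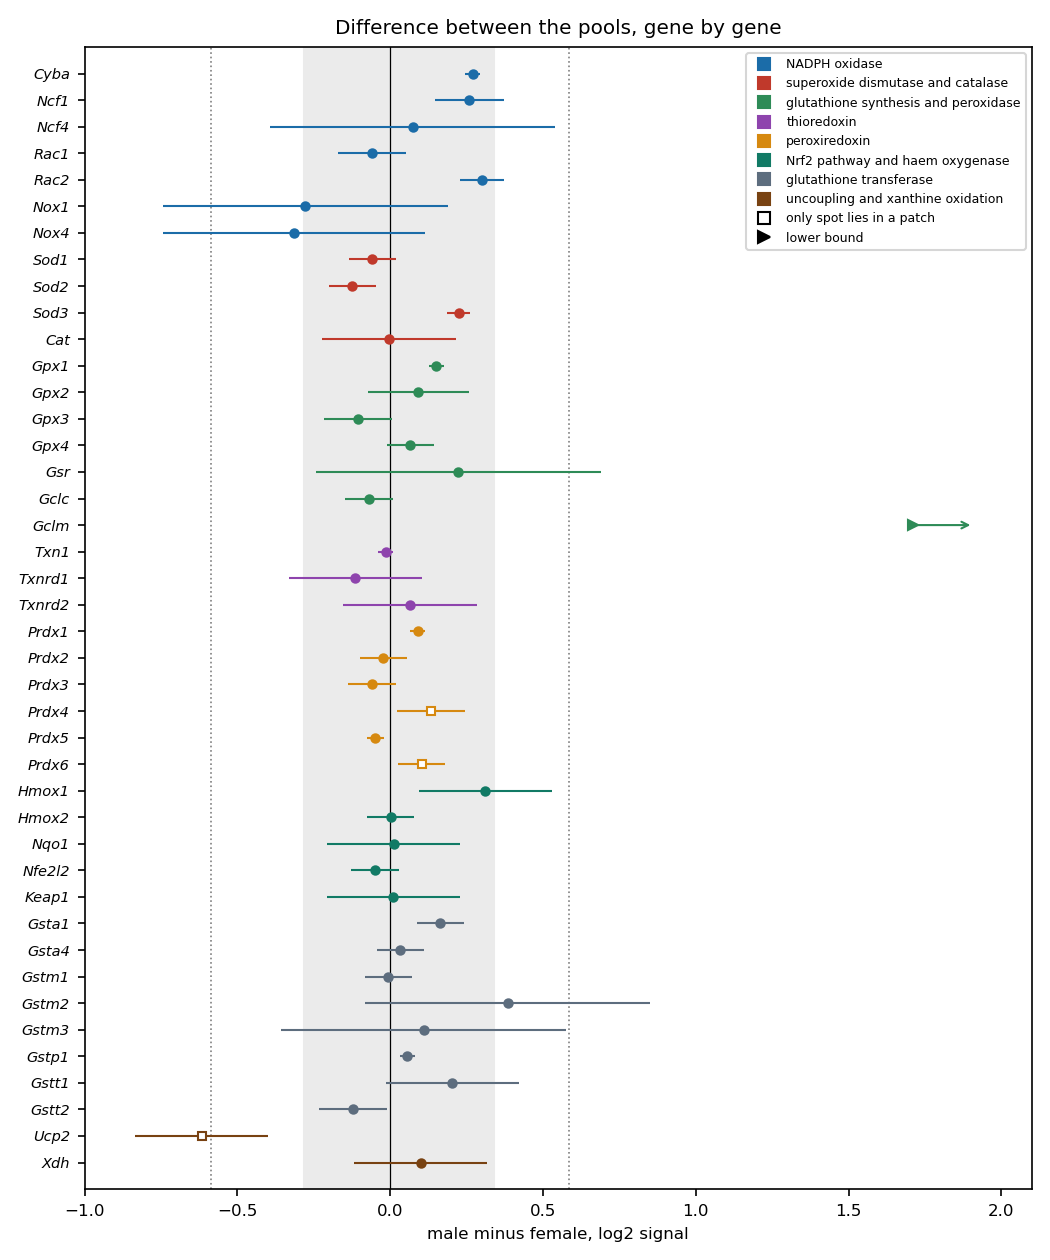
Male minus female log2 level of the 42 genes measured, with bars of 2 technical SD, over the range that holds all genes from the 5th to the 95th percentile (grey, -0.28 to 0.34); dotted lines mark 1.5-fold. Ucp2 at -0.62 and Nox4 at -0.32 lie beyond the grey range on the female side, and Gstm2 at 0.38 and the bound of Gclm at 1.71 on the male side. The grey range holds genes of all signal levels. Nox4 and Gstm2 are dim, and their differences are 1.47 and 1.65 times their technical SD.

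Among the NADPH oxidase genes, Cyba and Rac2 were higher in the male pool on every spot, and the dim catalytic subunits Nox1 and Nox4 were lower on 1 spot each. The other phagocyte subunits gave no clear direction: the probes of Ncf1 differed in sign, Ncf4 was within its technical SD, and Cybb was not well above background. Cyba encodes the membrane subunit that stabilises the catalytic subunits. Its level was 122% (male) and 101% (female), a difference of 0.27 ± 0.055 (SD over 10 spots of 1 probe). All 10 spots were higher on the male array, between 0.17 and 0.38. Rac2, a small GTPase of blood cells that switches the phagocyte oxidase on, was at 14.5% in the male and 11.8% in the female pool. Its difference was 0.30 ± 0.098 (SD over 9 spots), again with every spot higher on the male array.

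Ncf1 encodes the cytosolic organiser of the complex. Its brightest probe was at 30.3% in the male and 25.3% in the female pool, a difference of 0.26 with a technical SD of 0.056. Its other, dimmer probe was at -0.01 (82.5 units in the male and 85.2 units in the female pool), so its probes did not show 1 direction. Ncf4, another cytosolic subunit, was at 3.74% and 3.55%, a difference of 0.07 within its technical SD of 0.23. Cybb, the catalytic subunit of the phagocyte enzyme, gave 7.59 units in the male and 6.99 units in the female pool, so that neither array measured it well above background.

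Rac1, the widely expressed GTPase that can activate the oxidases, was at 33.9% in the male and 35.3% in the female pool, a difference of -0.06. Nox1 and Nox4, catalytic homologues outside phagocytes, were near the background. Nox1 was at 1.92% in the male and 2.33% in the female pool, a difference of -0.28 with a technical SD of 0.23. Nox4 was at 1.28% and 1.59%, a difference of -0.32 with a technical SD of 0.21. Its other probe gave 3.15 units in the male and 2.67 units in the female pool, not well above background on either array. With normexp background correction, which adds an offset that shrinks differences of dim probes, Nox1 was at -0.14 and Nox4 at -0.06.

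Most markers of the cells known to carry the phagocyte oxidase were also higher in the male pool, as were those of other glia. Of 16 microglia and macrophage genes 15 were measured on both arrays, and 12 had the higher value in the male and 3 in the female pool. Their median was 0.12, from -0.13 to 1.58 for Cd74, which takes part in antigen presentation. The summed level of that list was 1120% in the male and 1041% in the female pool. Its brightest members C1qa and C1qb, which encode complement subunits of microglia, were at -0.02 and 0.06, and Tmem119 and Cd163 were lower in the male pool at -0.12 and -0.13. Of the oligodendrocyte genes 10 of 10 were higher in the male pool, at a median of 0.11, and of the astrocyte and tanycyte genes 7 of 8, at a median of 0.06. Of the general neuronal genes 9 of 10 were lower there, at a median of -0.05. Over all genes measured on both arrays the male pool was the higher one in 45%. Less than 1.2-fold apart were 13 of the 15 microglia and macrophage genes and 6 of the 8 astrocyte and tanycyte genes. All 10 oligodendrocyte and all 10 neuronal genes were so too, as were 87.1% of all genes. The 4 phagocyte oxidase genes measured had a median of 0.26, and of 0.20 with the mean over probes. In tissue RNA, more cells of a type and more RNA per cell cannot be told apart, and the part of these cells in the oxidase genes was not tested.

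**Figure D3:**
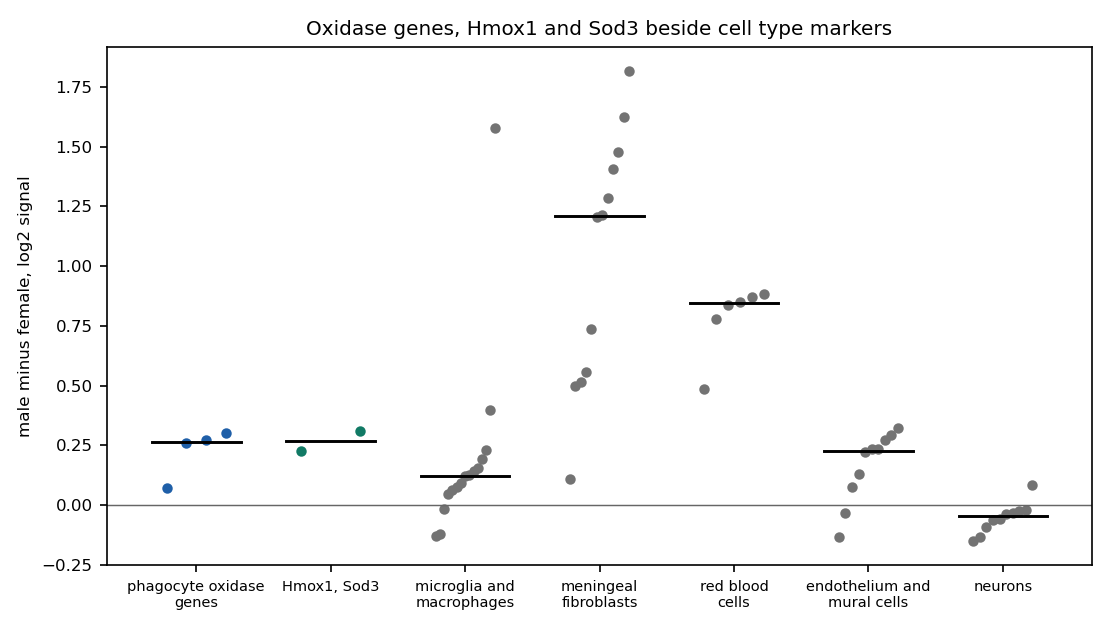
Male minus female log2 level of the phagocyte oxidase genes Cyba, Ncf1, Ncf4 and Rac2, of Hmox1 and Sod3, and of cell type marker genes well above background on both arrays; each point is a gene and each bar the median of its column. The oxidase genes lie at 0.07 to 0.30, and the microglia and macrophage markers have a median of 0.12. Cyba, Rac2 and the brightest probe of Ncf1 lie above every one of these markers but Cd68 at 0.40 and Cd74 at 1.58. With the mean over probes Ncf1 is at 0.12, and Ncf4 is at 0.07, so these 2 lie among the markers. Cyba at 0.27 and the marker Aif1 at 0.23 each have a software error of 0.20. The fibroblast and red blood cell markers have medians of 1.21 and 0.85.

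Of the superoxide dismutases Sod3 was higher, and Sod1 and Sod2 were slightly lower, in the male pool. Sod3, the secreted extracellular form, was at 42.3% in the male and 36.2% in the female pool. Its difference was 0.22 ± 0.026 (SD over 9 spots), and all 9 spots were higher on the male array. Sod1, the abundant cytosolic copper-zinc enzyme, was at 2098% and 2186%, a difference of -0.06 with a technical SD of 0.038. Sod2, the manganese enzyme of mitochondria, was at 157% in the male and 171% in the female pool, a difference of -0.12 with the same technical SD. Catalase (Cat), which breaks down peroxide in peroxisomes, was at 7.96% and 7.98%, closer together than its technical SD of 0.11.

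Most genes of vessels and meninges were also higher in the male pool, where 45% of all genes were. The list of 12 meningeal fibroblast genes had all 12 higher there, with a median of 1.21, a range of 0.11 to 1.82 and a summed level of 642% against 323%. Of 10 genes of endothelium and mural cells 8 were higher and 2 lower, at a median of 0.23 and a summed level of 347% against 305%. Less than 1.2-fold apart were 7 of these 10, where 87.1% of all genes were. Of 10 genes of choroid plexus and ependyma 7 were measured on both arrays. In the male pool 5 were higher and 2 lower, between -1.05 and 1.02 at a median of 0.24. The part of these lists in the Sod3 difference was not tested.

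In the glutathione system the modifier subunit of the synthesis enzyme was higher in the male pool by a bound on 1 spot, and the catalytic subunit was less than 1.2-fold apart. Gclm encodes the modifier subunit of glutamate-cysteine ligase, which makes the precursor of glutathione. Its single spot gave 41.2 units in the male pool, over a local background of 40 units. In the female pool it gave 3.14 units over 37 units, which was not well above background. Set against the lowest signal of a probe well above background on the female array, 12.9 units, the level of Gclm in the male pool was at least 3.28-fold higher, a bound of 1.71 on the log2 scale. No spot among its 18 nearest was 2-fold apart. The difference was 0.52 with normexp, under 1.5-fold. Gclc, the catalytic subunit, was at 82.9% in the male and 86.9% in the female pool on 2 spots, a difference of -0.07.

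The glutathione peroxidases, which reduce peroxides with glutathione, stayed within 1.2-fold, as did 87.1% of all genes. Gpx1, the main intracellular enzyme, was at 275% in the male and 248% in the female pool, a difference of 0.15 ± 0.034 (SD over 10 spots). Every spot of that probe was higher on the male array, and its second probe, also on 10 spots, was at 0.09. Gpx4, which reduces lipid peroxides in membranes and guards against ferroptosis, was at 2939% and 2809%, a difference of 0.07, and at -0.02 on its second probe. Gpx3, the secreted plasma enzyme, was at 38.0% in the male and 40.9% in the female pool, a difference of -0.11.

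Gpx2, known from the gut epithelium, was dim at 2.46% in the male and 2.31% in the female pool. Its difference of 0.09 was smaller than the SD of 0.11 over its 8 unflagged spots. Gsr, which regenerates glutathione from its oxidised form, was at 4.58% and 3.93%, a difference of 0.22 within its technical SD of 0.23.

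The thioredoxin and peroxiredoxin genes, 9 in all, were each less than 1.2-fold apart, where 87.1% of all genes were. Txn1, the electron donor of the peroxiredoxins, was at 556% in the male and 562% in the female pool, a difference of -0.02, and 5 of its 10 spots were higher on each side. Txnrd1, the cytosolic thioredoxin reductase, was at -0.11 on its brightest probe and at 0.17 on its other probe. Txnrd2, the mitochondrial reductase, was at 13.4% and 12.8%, a difference of 0.06 within its technical SD of 0.11.

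The 6 peroxiredoxins, 3 higher in each pool, lay between -0.06 and 0.13. Prdx1, a cytosolic peroxidase, was at 122% in the male and 115% in the female pool, a difference of 0.09 ± 0.031 (SD over 10 spots) with all 10 spots higher on the male array. Prdx2, the other cytosolic form and abundant in neurons, was at 829% and 843%, a difference of -0.02. Prdx3 of the mitochondria was at 95.9% in the male and 100.02% in the female pool, a difference of -0.06. Prdx5, found in mitochondria and peroxisomes, was at 442% and 458%, a difference of -0.05 with 1 of its 8 spots higher on the male array.

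Prdx4, the enzyme of the endoplasmic reticulum, was at 32.4% in the male and 29.5% in the female pool, a difference of 0.13. Prdx6, the form that works with glutathione, was at 160% and 149%, a difference of 0.10. The only spots of Prdx4 and Prdx6 lay in patches, with 2 and 3 of the 18 nearest spots at least 2-fold higher on the male array. Without spots in patches, the peroxiredoxin median went from 0.03 to -0.04.

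**Figure D4:**
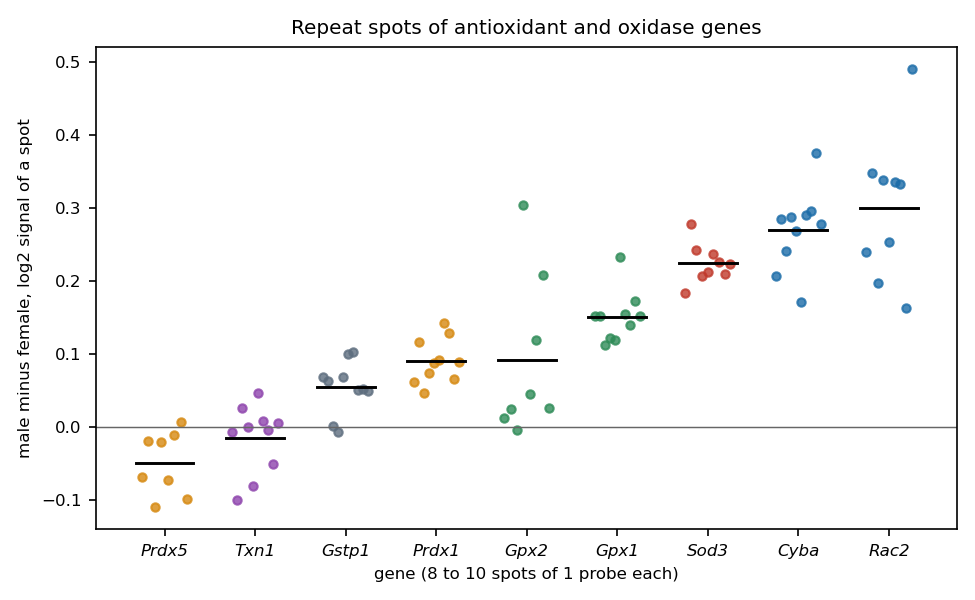
Male minus female log2 signal of each spot of the 9 genes whose brightest probe had 8 to 10 unflagged spots; bars are means. All spots of Cyba, Rac2, Sod3, Gpx1 and Prdx1 lie above 0, and those of Txn1 lie on both sides.

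The Nrf2 pathway genes were nearly equal between the pools apart from Hmox1. Nfe2l2, which encodes Nrf2, was at 33.02% in the male and 34.2% in the female pool on 2 spots, a difference of -0.05. Keap1, which marks Nrf2 for degradation, was at 22.3% and 22.1%, a difference of 0.01. Nqo1, a quinone reductase and a classical Nrf2 target, was at 10.1% and 10.05%, a difference of 0.01. The signs of Keap1, Nqo1 and Hmox2 changed with median centring.

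The haem oxygenases break haem down to biliverdin. Hmox1, the form induced by haem and by oxidants, was at 15.5% in the male and 12.5% in the female pool, a difference of 0.31 with a technical SD of 0.11 on 1 spot. Hmox2, the constitutive form of neurons, was at 271% and 270%, a difference of 0.00. Beside Hmox1, the red blood cell genes measured on both arrays, 6 of a list of 8, were all higher in the male pool, at 0.48 to 0.88. The summed level of the red blood cell list was 3447% in the male and 1973% in the female pool. Their part in the Hmox1 difference was not tested.

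Of the 13 genes whose window held the core, 11 were measured on both arrays. The male pool was the higher one in 7 and the lower one in 4, at a median of 0.06 and between -0.12 and 0.26. Of the 21 such genes with a window and no match 10 were higher and 11 lower, between -0.62 and 0.38 at a median of -0.00, and the difference between these sets was not tested. Elements outside the windows were not searched. The value of 0.26 was that of Ncf1, whose other probe was at -0.01. Over all genes measured on both arrays the male pool was the higher one in 45%, at a median of -0.02. Gclm, printed above with its core at 172 bases before the start, was measured in the male pool only. Gsta3, with its core at 17 bases before the start, was measured in neither.

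The glutathione transferases conjugate glutathione to reactive compounds. Of the 9, 8 were measured on both arrays at a median of 0.08, and 6 had the higher value in the male and 2 in the female pool. Gstm2 had the largest difference, at 4.40% in the male and 3.37% in the female pool, 1.31-fold or 0.38 on a dim spot with a technical SD of 0.23. Gsta1 was at 431% and 385%, a difference of 0.16, with 0.11 on its second probe. Alpha-class and mu-class genes are close in sequence, and whether a probe also bound such copies was not tested.

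Gstt1 of the theta class was at 8.89% in the male and 7.72% in the female pool, a difference of 0.20. Gstt2 was at -0.12, 0.16 and -0.01 on its 3 probes, which do not give 1 direction. Gstm1 was at -0.01 and 0.05 on its probes, and its sign changed with the probe and with quantile normalization. Gstm3 was at 0.11, within its technical SD of 0.23. Gstp1 of the pi class was at 0.06 on both of its 10-spot probes. Gsta4, which detoxifies aldehydes of lipid peroxidation, was at 190% and 186%, a difference of 0.03. Gsta3 gave 5.82 units in the male and 6.23 units in the female pool and was not well above background.

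Ucp2 was the member with the largest difference towards the female pool. It encodes a carrier of the inner mitochondrial membrane that is known to limit the formation of reactive oxygen species. Its level was 10.2% in the male and 15.7% in the female pool, 1.53-fold or -0.62, with a technical SD of 0.11 on a single spot of a single probe. The spot lay in a patch. Of its 18 nearest measured spots, which belong to other probes, 16 were higher on the female array, 6 of them at least 2-fold, and their median difference was -0.55. The scaled signal of these neighbours was higher on the female array by a median of 2.86% of the 75th percentile, against 5.46% for Ucp2 itself. The local background beside the spot was 25 units on the male and 24 units on the female array. With normexp Ucp2 was at -0.47, under 1.5-fold, and no other probe gave a value for it. The part of the patch in this difference was not tested.

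Xdh, which encodes xanthine dehydrogenase, an enzyme that can release superoxide in its oxidase form, was at 6.54% in the male and 6.10% in the female pool. The difference of 0.10 was within its technical SD of 0.11.

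**Figure D5:**
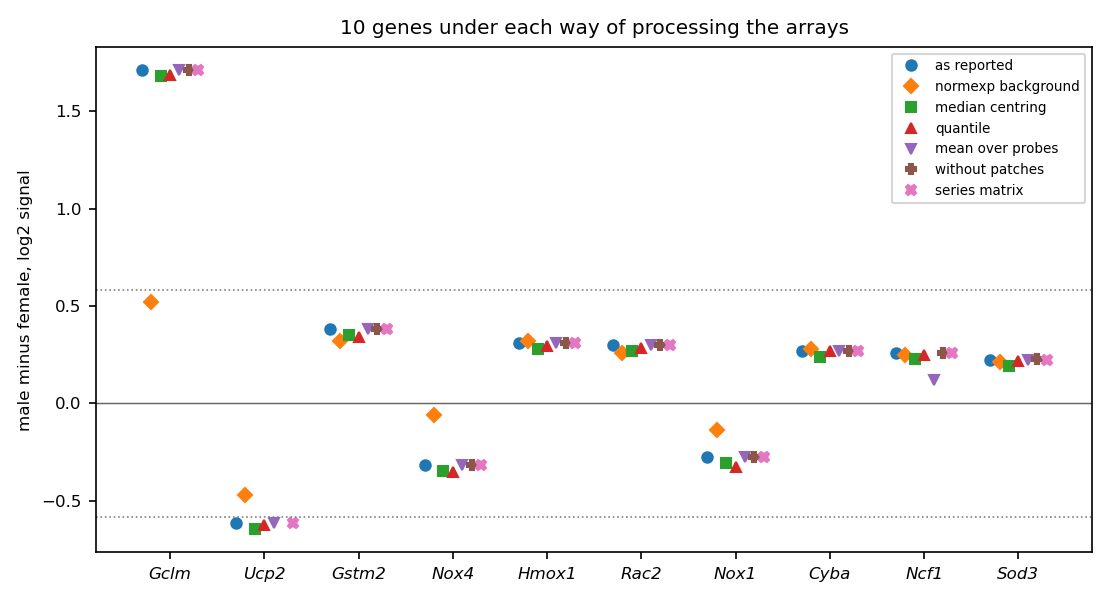
Male minus female log2 level of 10 genes as reported and under 6 other ways of processing the arrays; dotted lines mark 1.5-fold, and a missing point means that no spot was left. Gclm drops to 0.52 and Ucp2 moves to -0.47 with normexp, Ncf1 is at 0.12 with the mean over probes, and Cyba, Rac2, Hmox1 and Sod3 stay between 0.19 and 0.32.

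Where several probes of a gene were well above background on both arrays (8 genes), all probes had 1 sign in 3 of them. These were Gpx1, Gsta1 and Gstp1. In Ncf1, Gpx4, Txnrd1, Gstm1 and Gstt2 the sign differed between probes, at differences of no more than 0.26 in size.

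Other genes of the same pathways were taken from a list of 86, of which 76 were on the array and 65 measured on both arrays. The male pool was the higher one in 34 and the lower one in 31, at a median of 0.02 that became -0.01 with median centring. The 28 further genes of the Nrf2 pathway, metal binding and quinone metabolism were all less than 1.2-fold apart, where 87.1% of all genes were. They lay between -0.24 and 0.18, 17 higher and 11 lower. The 21 further glutathione enzymes had a median of 0.07. At least 1.5-fold apart were 4 of the 68 genes measured on 1 or both arrays, where 6.91% of all genes were. The spot of each of the 4 lay in a patch.

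Txnrd3, a thioredoxin reductase known from testis, was 16.5-fold higher in the male pool, at 45.9% against 2.78%. Of the 18 spots nearest to it 7 were at least 2-fold higher on the male array. For Duoxa1, the maturation factor of a dual oxidase, the male pool was at least 11.2-fold higher, at 140.9 units against 9.43 units, the latter not well above background. Duox1, the dual oxidase itself, was at 1.02% in the male and 3.30% in the female pool, a difference of -1.70 opposite to that of its factor. For Hpgds, a glutathione-dependent prostaglandin synthase, the female pool was at least 4.97-fold higher, at 76.9 units against 7.09 units. Of the rest measured on both arrays, Gsto2, an omega-class transferase, and Maob, a monoamine oxidase whose spot lay in a patch, had the largest differences towards the male pool, at 0.51 and 0.32. Towards the female pool these were Maff, a partner of Nrf2, at -0.24 and Aox1, an aldehyde oxidase, at -0.21. Gsto2 and Maff were dim, with technical SDs of 0.21 and 0.23, and were at 0.15 and -0.09 with normexp. Without spots in patches 0 of the 61 other pathway genes left were 1.5-fold apart, and with normexp 4 were.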

How the data were processed

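Each pool was measured on 1 Agilent array. Per the file headers, Feature Extraction 11.5.1.1 (protocol GE1_1105_Oct12, design build rn4) gave the deposited spot intensity with background subtracted and no scaling between arrays; the submitters' processing notes name version 9.1. The deposited series matrix was linear and held that intensity as a percentage of the array's 75th percentile, within 0.401% for every probe, with column medians of 28.0 (male) and 27.8 (female).

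Rat transcript spots flagged as outliers on at least 1 array (664) were not used. Log2 intensity was centred on the array's 75th percentile and averaged over a probe's spots. RefSeq accessions were matched to symbols of assembly GRCr8 (21106 of 45591 probes), and a gene took its probe with the highest mean signal. A probe was well above background when over 50% of its spots were flagged so. A dim side was raised to the array's lowest such probe signal, 15.1 units (male) or 12.9 units (female), and the difference written as a bound; a bound with the wrong sign was dropped. All 45 members were described. Of the other pathway genes, those 1.5-fold apart and otherwise the 2 per direction with the largest difference were named. Markers were given by list, and the 2 brightest genes were named for the microglia and hypothalamic neuron lists only. Cd68, Cd74, Tmem119, Cd163, Cga, Prl and Tshb were added after their values were seen. The set of phagocyte oxidase genes was not among the planned lists.

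Members, lists and tests were chosen with earlier results of these data known. Alternatives were normexp (limma 3.58.1 in R 4.3.3, offset 50, on spot and background medians), median centring, quantile normalization, the mean over probes, leaving out patches, the series matrix and no filter on dim probes. With 1 array per sex no test was made and a call is a fold. The procedure was tested on simulated data with differences set in brighter genes only. These data held no bounds and no patches, so the cases of Gclm and Ucp2 were not covered. Protein features were not analysed here. The number of arrays limits the precision.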

Additional observations from a re-analysis of the deposited data

How the results depend on the processing

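With normexp background correction 0 members were at least 1.5-fold apart and 0 were 2-fold apart, in place of 2 and 1; its offset shrinks differences of dim probes by construction. Without spots in patches 1 member, Gclm, was at least 1.5-fold apart, because Ucp2 had no spot left. The other 5 alternatives left both counts as they were. The members' median lay between 0.00 (median centring) and 0.06 (normexp), and members higher in the male pool numbered 21 to 27 over all 7 alternatives. The sign of a single member changed in 3 of 42 cases with median centring, 3 with the mean over probes, 2 with normexp and 2 with quantile normalization. Each had a reported difference of at most 0.12 in size. The count of all genes and transcripts at least 1.5-fold apart was 1794, and 864 with normexp, 619 without patches and 4921 without the filter on dim probes. No paired analysis was possible because each sex had 1 array. Near the background, as for Gclm, Nox1 and Nox4, signal limits what the arrays can show.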
